A study of Triticum aestivum with 12 samples.

Results

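The roots of the winter wheat variety Xindong20 gave a higher array signal than those of Xindong23 for 112 probe sets, by at least 4-fold at both phosphorus levels tested. These 112 made up 0.183% of the 61179 probe sets of the array, with the manufacturer's control probe sets left out. A probe set is a group of short oligonucleotides that together read 1 transcript or several near-identical ones, and its level is given here on the log2 scale, where 1 unit is a doubling. The members were selected on the measured levels. A probe set was a member if its Xindong20 mean exceeded its Xindong23 mean by at least 2 log2 units at conventional and at low phosphorus. In addition, the lowest of its 6 Xindong20 arrays lay above the highest of its 6 Xindong23 arrays. The means at low and conventional phosphorus also had to lie less than 1 unit apart in each variety. The variety differences, the separation of the arrays and the small phosphorus differences below are therefore what chose the members, and are given as a description with no test.

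RNA was measured on 12 Affymetrix wheat arrays in 4 groups of 3, which the series design calls biological replicates. Seedlings of both varieties stood in Hoagland solution, either with the conventional phosphorus level (CP) of 1.0 mmol/L or with a low one (LP) of 0.05 mmol/L, where potassium chloride stood in for part of the potassium phosphate. After 14 days of culture, the roots of all 4 groups were kept in solution with 15% PEG-6000, a polymer that withholds water from roots, for 7 days before sampling. Plants without this drought treatment were not analysed here, so each level below is a level under drought, and a variety difference in unstressed roots was not measured. Each variety stands for 1 genotype, and the number of plants behind a sample is not given in the sources used here.

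Bread wheat is hexaploid, so most of its genes occur as near-identical copies on the A, B and D subgenomes, and a probe set can read 1 copy or several. Varieties of a selfing crop differ in which copies they carry, in the sequence of those copies and in how strongly they transcribe them. The array was designed on public wheat sequences, and its oligonucleotides bind less well to a transcript that differs from the design. A lower level of transcript, a transcript that differs under the oligonucleotides and the lack of the gene cannot be told apart from these values. In whole roots, fewer cells of a type and less RNA per cell cannot be told apart either.

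The probe set IDs carry some of this structure. In Ta_5824_2_S1_at, Ta_5824 is the stem, a cluster of similar sequences, and the following number is the subcluster. The ending _at marks a probe set designed as unique, _a_at one that reads alternative transcripts of a gene, _s_at one that reads several transcripts, and _x_at one with oligonucleotides that may bind other transcripts. Dots inside the IDs are written here as the character _.

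Both LP3 arrays, replicate 3 of each variety at low phosphorus, lay far from the other 10 arrays along principal component 1 (34.7% of the variance). Array medians lay between 4.24 and 4.33, and correlations between arrays between 0.899 and 0.992. Root tissue was checked on annotated genes. All 3 probe sets of DMAS1, an enzyme of mugineic acid synthesis that grass roots use to take up iron, had levels above the array medians. Of the leaf markers, 5 of 31 probe sets lay above them, and of the grain markers 3 of 17. Over all probe sets 30968 of 61179 lay above them, and of the annotated ones 872 of 1273. DMAS1 was the only gene of the root list found in the annotation, and the leaf probe sets stood for 3 genes, so this check is weak. The 3′ minus 5′ level of ubiquitin, a measure of how complete the RNA was, ranged from -0.88 to 2.84 over the 6 Xindong20 arrays and from -0.65 to 1.16 over the 6 Xindong23 arrays, highest on LP3 in both. The means of the varieties differed by 0.15 (two-sided exact permutation test, p = 0.933). Without both LP3 arrays it was -0.15 (p = 0.254, exact permutation test). Within CP the varieties did not overlap, at -0.54, -0.41 and -0.54 in Xindong20 and -0.34, -0.29 and -0.19 in Xindong23. The CP means differed by -0.22 (exact permutation test, p = 0.1, the smallest that 3 against 3 arrays allow). The mean level of the 12 poly-A spike probe sets differed by -0.19 between the varieties (two-sided exact permutation test, p = 0.803). In both varieties it was lower on every LP array (3.74 to 6.22) than on every CP array (6.54 to 7.68). A technical part in the LP minus CP differences below therefore cannot be told apart.

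Few members could be named. The platform annotation pairs 1273 of the 61179 probe sets with 1 gene and none of the rest, and 111 of the 112 members are among the unpaired. They are given by their IDs.

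The 1 named member was Ta_24501_1_S1_at, paired with LOC543292, for which RefSeq lists the synonym PR5. Proteins of the PR-5 family, the thaumatin-like proteins, accumulate in plants after attack by fungi, and the family includes osmotin, which tobacco cells accumulate under osmotic stress. In Xindong20 its levels were 5.58, 8.66 and 9.21 at CP and 6.16, 8.14 and 7.74 at LP. In Xindong23 they were 5.08, 5.56 and 4.55 at CP and 3.73, 4.51 and 5.33 at LP. Replicate 1 of Xindong20 was low at both phosphorus levels, and its CP array lay only 0.02 above the highest Xindong23 array. The means differed by 2.76 at CP (7.82 ± 1.95 against 5.06 ± 0.51, SD, n = 3 each), a 6.76-fold difference. At LP they differed by 2.82 (7.34 ± 1.05 against 4.52 ± 0.80), or 7.07-fold. Without Xindong20 CP replicate 1 the probe set was no longer a member, because its means at CP and LP then lay too far apart. PR5 ranked 65 among the 112 by the smaller of its differences, and the fit across all probe sets (limma, adjusted p under 0.05) called it at neither phosphorus level. With array weights the fit called all 112 members at CP, PR5 included, and the share over all probe sets was not counted there. At LP no alternative of the fit called PR5 (limma, adjusted p from 0.0689 to 0.553).

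Of 12 lists of genes by symbol (dehydrins, antioxidant enzymes, glutathione transferases, defence, heat shock, sugar metabolism, tissue markers and others), 11 held genes of the annotation and 1 held a member. That list, of pathogenesis-related and defence genes, had 4 probe sets of PR5, Glc1 and WGA2, of which the PR5 probe set was the 1 member. Its median variety difference was 0.35 at CP and -0.38 at LP, beside 0.06 and -0.02 over all probe sets. No annotated gene matched the list of phosphate starvation genes, so these were not analysed here.

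The probe set with the largest difference was Ta_5824_2_S1_at. Its levels in Xindong20 were 10.64, 11.51 and 11.37 at CP and 11.37, 11.88 and 11.79 at LP. In Xindong23 they were 3.16, 2.84 and 3.45 at CP and 3.66, 2.51 and 3.42 at LP. Every Xindong20 array thus lay among the brighter signals of the array and every Xindong23 array below the mean of the 12 array medians, 4.27. Levels below 4.27 are called dim here. The differences were 8.02 at CP and 8.49 at LP, or at least 260-fold and at least 359-fold in signal. A dim level holds background, so a signal fold against it is a lower bound. It is no bound on the fold in transcript, since a transcript that differs under the oligonucleotides also gives a low signal. The second probe set of the same subcluster, Ta_5824_2_S1_x_at, was also a member, with differences of 6.34 and 7.35.

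Next came Ta_3242_3_A1_at. Xindong20 gave 10.41, 9.43 and 9.98 at CP and 8.99, 8.82 and 9.09 at LP, and Xindong23 gave 2.43, 2.35 and 2.76 and then 1.71, 2.02 and 1.65. The differences were 7.42 and 7.17. Of all members it had the most negative LP minus CP difference in each variety, -0.97 in Xindong20 and -0.72 in Xindong23, close to the limit of 1 that the rule sets. Without Xindong20 CP2 or without Xindong20 LP3 it passed that limit and was no longer a member.

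TaAffx_113846_1_S1_s_at had levels of 11.20, 9.39 and 10.55 at CP and 11.30, 10.69 and 9.57 at LP in Xindong20, against 3.68, 4.12 and 3.73 and then 3.74, 3.84 and 4.40 in Xindong23. Its differences were 6.53 and 6.52. Ta_2895_1_S1_x_at, with a difference of 6.03 at LP, gave 11.59, 9.85 and 11.01 at CP and 11.63, 10.76 and 10.02 at LP in Xindong20. Its Xindong23 levels were 5.04, 4.92 and 4.51 at CP and 4.76, 4.25 and 5.30 at LP. Their group means, 4.82 and 4.77, lay above the dim limit but not far from it. The signal folds were 63.8 and 65.5. Ta_2895_1_S1_x_at and TaAffx_113846_1_S1_s_at were both highest on replicate 1 of Xindong20 at each phosphorus level. Over the 6 Xindong20 arrays they ran together with a Pearson r of 0.984, as did both probe sets of Ta_2895 with an r of 0.995, while Ta_2895_1_S1_x_at and Ta_5824_2_S1_at had an r of -0.635. These pairs were chosen after their values were seen, the arrays are the same for both members of a pair, and probe sets of 1 stem may read the same transcript. The strongest members therefore did not share a single order of the Xindong20 arrays.

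The other 5 of the 10 members with the largest smaller difference were Ta_9304_1_S1_at, TaAffx_14498_1_S1_at, Ta_9188_2_S1_at, Ta_4672_1_A1_a_at and Ta_6984_1_A1_at. Their differences ran from 5.81 to 6.78 at CP and from 5.52 to 6.58 at LP, and their Xindong23 means were dim in each case. TaAffx_14498_1_S1_at had Xindong20 levels of 9.90, 9.86 and 9.91 at CP, an SD of 0.03, and 11.03, 11.34 and 9.15 at LP, an SD of 1.18. Ta_9188_2_S1_at gave 8.06, 7.87 and 8.22 at CP and 8.38, 8.15 and 10.03 at LP. Replicate 3 at LP was the lowest Xindong20 array for the first of these and the highest for the second. TaAffx_14498_1_S1_at was no longer a member without Xindong20 LP3, and Ta_9188_2_S1_at without Xindong20 LP1 or LP2. Of these 10 members, the 7 other than this pair and Ta_3242_3_A1_at stayed members whichever single array was left out.

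**Figure D1:**
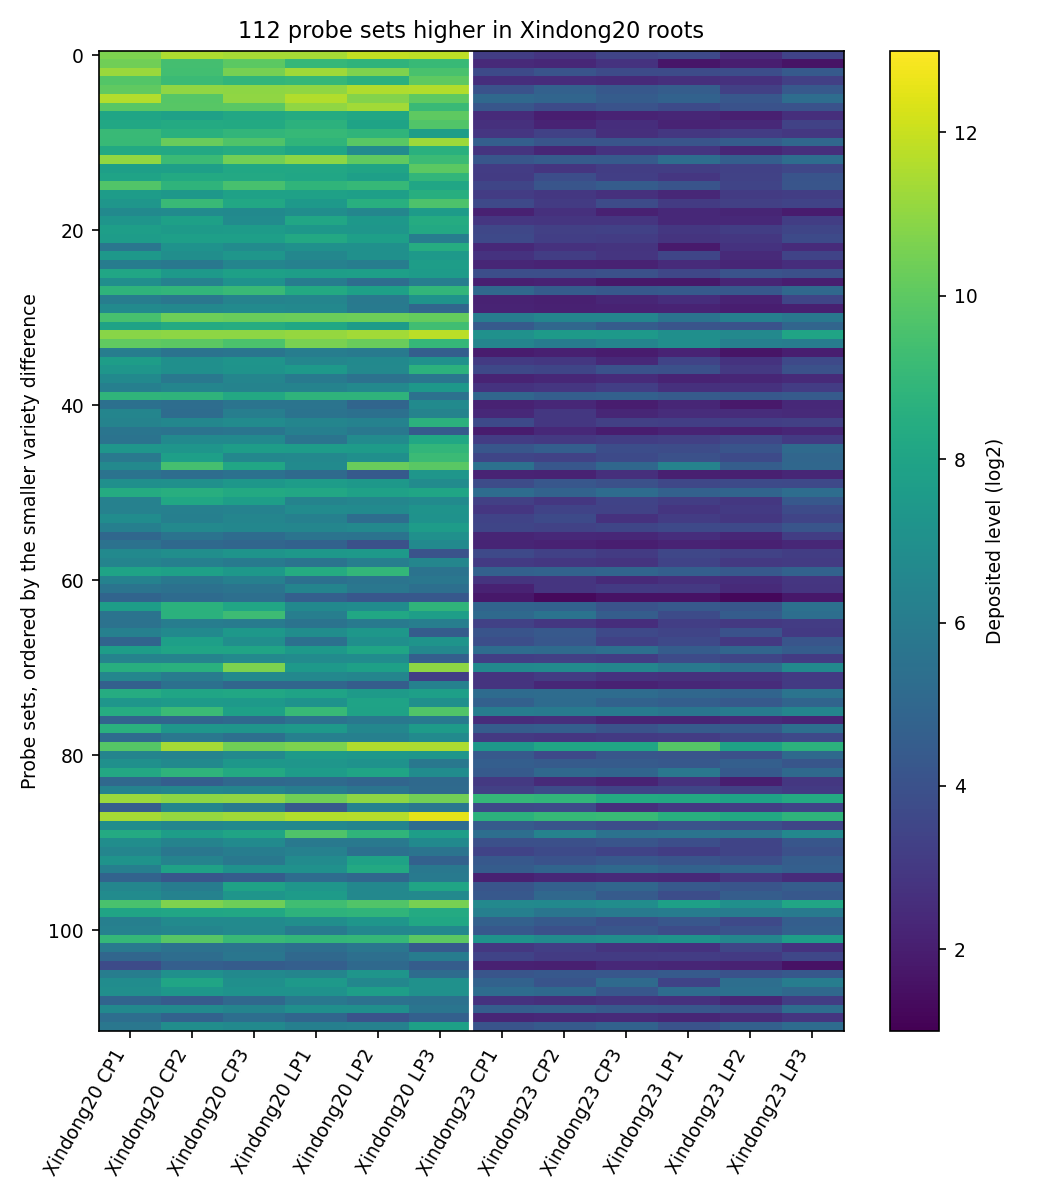
Deposited log2 level (colour) of the 112 members in rows, ordered by the smaller of the variety differences with the largest at the top, on the 12 arrays in columns. The white line parts the varieties, and the rule itself sets every Xindong20 level above every Xindong23 level of the same row. Within Xindong20, the LP3 column departs from its neighbours in both directions.

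Across the 112 members, the median level in Xindong20 was 7.04 at CP and 7.20 at LP, and in Xindong23 it was 3.49 at both. Over all probe sets the corresponding medians lay between 4.25 and 4.31. Members ranged from 4.28 to 11.25 in Xindong20 at CP and from 4.41 to 11.93 at LP, so all were above the dim limit there. In Xindong23 they ranged from 1.55 to 8.97 at CP and from 1.54 to 8.81 at LP. The median difference was 3.23 at CP (2.01 to 8.02) and 3.10 at LP (2.02 to 8.49). The smaller of the differences was at least 3 in 55 members, at least 4 in 22, at least 5 in 13 and at least 6 in 5.

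In 72 members, 64.3%, the Xindong23 mean was dim at both phosphorus levels, in 5 at 1 level and in 35 at neither. The dim limit lies near the middle of the array by construction, and 48.3% of all probe sets were dim in Xindong23 at both levels. As a scale for background, the 64 probe sets for reporter genes, which are not wheat genes, had a median level of 2.35 and a 90th percentile of 4.19. In 69 members, 61.6%, the Xindong23 means lay below that percentile at both phosphorus levels, as did those of 47.1% of all probe sets. The members' median in Xindong23, 3.49, lay above the reporter median. The median of the smaller difference was 3.17 in the 72 members dim in Xindong23, at least 9.0-fold in signal. In the 35 members dim in Xindong23 at neither level it was 2.57, or 5.94-fold in signal. Of the 64 reporter probe sets 58 lay below the dim limit and the rest did not, so a level just above it may still hold background.

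**Figure D2:**
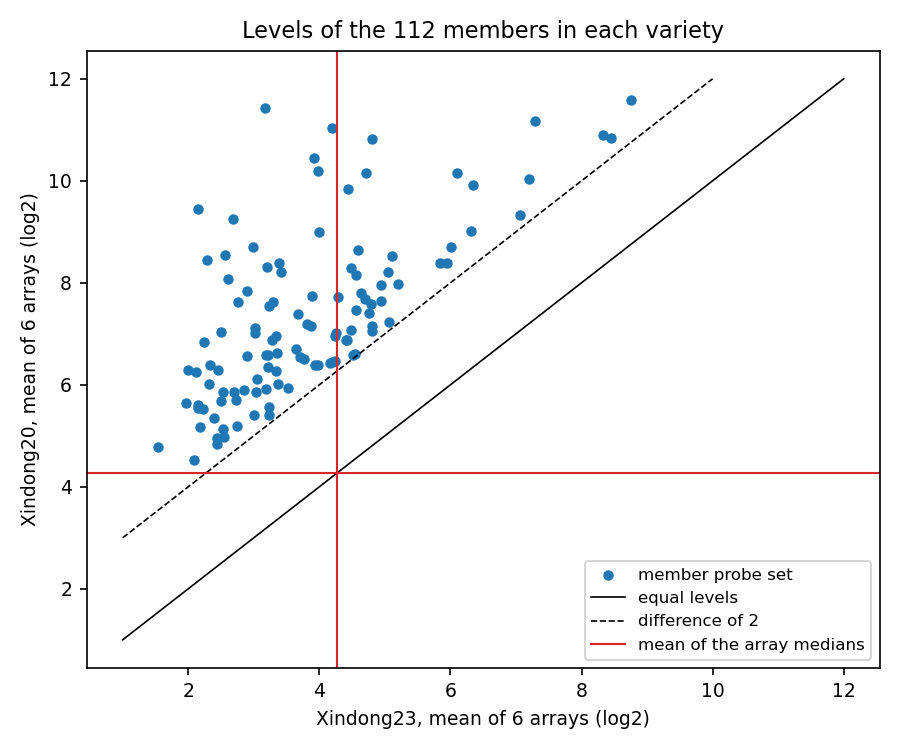
Mean log2 level of each member over the 6 Xindong20 arrays (y axis) against its mean over the 6 Xindong23 arrays (x axis). The red lines mark the mean of the array medians, 4.27. All 112 points lie above the horizontal red line, and most lie to the left of the vertical one.

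Some members were bright in both varieties. The Xindong23 means exceeded 6 at both phosphorus levels in 7 members, and the Xindong20 means exceeded 10 at both in 10. The member with the highest Xindong23 CP mean, Ta_24601_1_S1_at, gave 11.38, 11.08 and 11.29 at CP and 11.63, 11.66 and 12.51 at LP in Xindong20. In Xindong23 it gave 8.73, 9.06 and 9.12 and then 8.55, 8.23 and 8.82. The varieties were apart by 1.96 at their nearest arrays, and the difference was 2.28 at CP, a 4.87-fold difference, and 3.40 at LP, a 10.54-fold difference. Ta_23807_4_S1_s_at had Xindong20 levels between 10.40 and 11.17 and Xindong23 levels between 7.90 and 8.98, with differences of 2.32 and 2.44.

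Ta_13818_1_S1_at was the narrowest case. Xindong20 gave 9.83, 11.38 and 10.41 at CP and 10.62, 11.59 and 11.54 at LP, and Xindong23 gave 7.36, 8.09 and 8.11 and then 9.83, 7.92 and 8.69. Xindong23 LP replicate 1 and Xindong20 CP replicate 1 were both 9.83 after rounding, so the separation that the rule asks for was met by under 0.01. The distance between the lowest Xindong20 and the highest Xindong23 array was under 0.5 in 9 members, at least 1 in 91 and at least 2 in 55, with a median of 1.97.

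At the threshold itself, the members nearest to a difference of 2 were Ta_11372_1_A1_at (smaller difference 2.01), Ta_15302_2_A1_x_at (2.02) and Ta_27689_1_A1_at (2.05). The nearest probe sets outside that met the other conditions were TaAffx_29649_1_S1_at (1.99), Ta_23032_1_S1_at (1.93) and Ta_5515_3_S1_at (1.93). There were 7 members between 2 and 2.1 and 5 such outside probe sets between 1.9 and 2, so the count of 112 has no natural edge at the threshold.

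**Figure D3:**
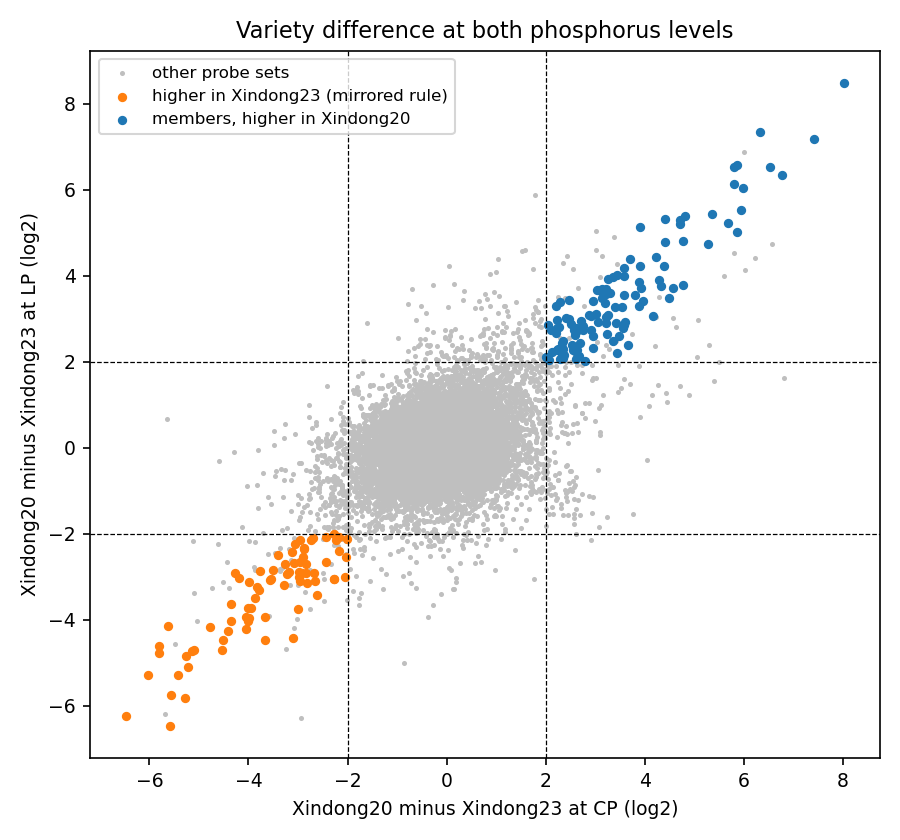
Xindong20 minus Xindong23 difference of group means (log2) at CP (x axis) and at LP (y axis) for the 61179 probe sets. Blue points are the 112 members, orange points the 75 probe sets that meet the mirrored rule, and dashed lines mark 2 and -2. Grey points beyond both dashed lines failed the separation of arrays or the limit on the phosphorus difference.

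The same rule with the varieties exchanged gave 75 probe sets, 0.123% of the 61179, higher in Xindong23. The steps of the rule cut both directions down differently. A difference of at least 2 was found at CP in 307 probe sets for Xindong20 and 355 for Xindong23, and at LP in 340 and 220. At both phosphorus levels it was found in 152 (0.248% of all probe sets) and 124. The separation of the arrays removed 19 and 37 of these, and the limit on the phosphorus difference 21 and 12. Separation of all 6 against all 6 arrays alone held for 507 probe sets higher in Xindong20, 0.829% of all.

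In the fit across all probe sets (limma, adjusted p under 0.05), 101 of the 112 members were called higher in Xindong20 at CP, where 0.894% of all probe sets were. At LP 95 were called, where 0.57% of all probe sets were, and the same 95 were called at both. The rule used these contrasts, so the counts say only how its thresholds of size relate to a test. The 11 members called at neither varied more, with a median of 1.52 for the largest of a member's group SDs against 0.67 in the others. The rule sets a large difference in every member, so a call depends largely on this spread and the contrast follows from the test.

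Replicates of the members were more spread than those of all probe sets, without matching for level. In Xindong20 the members were brighter than the array as a whole, and they were chosen on the same values. The median SD among 3 replicates was 0.30 in the members and 0.18 over all probe sets in Xindong20 at CP, 0.64 and 0.34 in Xindong20 at LP, 0.24 and 0.13 in Xindong23 at CP and 0.33 and 0.26 in Xindong23 at LP. In 28 members at least 1 group had an SD above 1. Ta_14165_1_S1_at, singled out after its values were seen, gave 6.63, 9.46 and 8.09 at CP and 6.75, 10.27 and 9.93 at LP in Xindong20. Its replicate 1 was lowest at both phosphorus levels, as it was for PR5.

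In Xindong20 at LP, where the members' spread was widest, 1 array often lay apart from the others. Xindong20 LP3 lay more than 1 unit from the mean of the other Xindong20 LP arrays in 58 members, 51.8%. Of all probe sets, not matched for level, 21.7% did. LP3 was above the other arrays in 33 of the 58 members and below in 25. Xindong23 LP3 did so in 13 members, 11.6% against 10.97% of all probe sets, and was above in each of the 13. The part of the LP3 arrays in the spread was not tested. With both LP3 arrays left out, the LP difference of the 112 members had a median of 3.24 (1.85 to 8.54) and was at least 2 in 111 of them.

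The rule was also applied with arrays left out. When it was applied without Xindong20 CP1, it chose 119 probe sets, and for 115 of them the array that was left out lay above all Xindong23 arrays. Without Xindong20 LP3 it chose 125, of which 114 had the LP3 array above all Xindong23 arrays. Over all 12 arrays, each left out in turn, the array left out lay on its own variety's side in all but 0 to 11 of the probe sets chosen without it, with a median difference to the other variety between 2.93 and 3.40. Each array left out was set against arrays of the other variety that had a part in choosing, so these counts are a description. Only the LP3 arrays were set against each other with neither used in choosing. Without both, the rule chose 130 probe sets, and in 124 of these Xindong20 LP3 lay above Xindong23 LP3, as it did in 53.1% of all probe sets. The difference between these 2 arrays had a median of 2.67 in the 130 and 0.03 over all probe sets, and was at least 2 in 89 of the 130 and in 0.807% of all. This rests on a single array per variety, both far from the other arrays along principal component 1. The probe sets are not replicates of the comparison, so these counts too are a description.

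The single arrays also changed the list. Of the 112 members, 66 stayed members whichever array was left out, 46 were lost in at least 1 case and 13 in at least 3. The number of members ran from 96 without Xindong20 LP1 to 125 without Xindong20 LP3.

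Phosphorus moved the members little, as the rule demands. The LP minus CP difference in Xindong20 had a median of 0.01 (-0.97 to 0.96), with 57 members higher at LP and 55 lower, and 61 within 0.5. In Xindong23 the median was 0.01 (-0.72 to 0.96), with 58 higher and 54 lower, and 101 within 0.5. The variety difference at LP minus that at CP had a median of 0.04 (-1.27 to 1.23) and exceeded 1 in size in 8 members.

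Under the same fit, 2 of the 112 members were called higher at LP in Xindong20 and none lower, where 1.75% of all probe sets were called in either direction. Ta_13689_1_S1_at gave 4.81, 4.94 and 5.09 at CP and 5.52, 5.82 and 5.94 at LP, and Ta_16608_1_S1_at gave 5.20, 5.78 and 5.37 and then 6.25, 6.24 and 6.72. In both, all LP arrays lay above all CP arrays of Xindong20, by differences of means of 0.81 and 0.95. No member was called without any 1 of the 6 CP arrays or without Xindong20 LP2, and 1 was without Xindong23 LP2. With array weights 25 members were called, and 9 without both LP3 arrays. The share over all probe sets was not counted under these alternatives, so a rise in calls across the whole array was not set apart. In Xindong23 limma called 0 members (3 at an unadjusted p under 0.05), where 0.00654% of all probe sets were called. For the change of the variety difference with phosphorus it called 0 (8 at an unadjusted p under 0.05), where 0.132% of all were called, and 3 with array weights. The rule bounds these contrasts, so nothing is read from the counts. The member with the largest LP minus CP difference in Xindong20, TaAffx_15296_1_S1_at at 0.96, gave 5.73, 7.12 and 6.79 at CP and 7.04, 7.04 and 8.44 at LP, and its groups overlapped.

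The 112 members fell on 106 stems, and no stem held 3 or more. The 6 stems with a pair of members were Ta_1038, Ta_10405, Ta_15302, Ta_2895, Ta_5824 and Ta_9188, and in 4 of them the pair shared the subcluster. A pair from 1 subcluster may read the same transcript and is not independent. For 73 members no other probe set shared the stem. In 30 stems, 33 members stood beside 67 probe sets that were not members.

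The 67 probe sets of the same stems that failed the rule mostly had variety differences under 1 in size, and failing the rule itself favours small ones. Stem pairs in which both probe sets were members are not counted among them. Of the 67, 41 had differences under 1 in size at both phosphorus levels, and 26 under 0.5. Their median differences were 0.41 at CP and 0.33 at LP, beside 0.06 and -0.02 over all probe sets. Over all probe sets the quartiles were -0.20 and 0.26 at CP and -0.17 and 0.15 at LP, so small differences were common. Of the 67, 9 were dim in all groups. Of the 67, 43 were above the dim limit in all groups, and 29 of these 43 had differences under 1. Limma called 12 of the 67 higher in Xindong20 at CP, 17.9%, where 0.894% of all probe sets were called. At LP it called 10, 14.9%, where 0.57% were, and it called 2 lower at CP and 1 lower at LP. Without both LP3 arrays the count at CP was 20, and without any 1 of the 6 CP arrays of either variety it was 4 to 7. At LP it was 6 without Xindong23 LP replicate 2. The shares over all probe sets with arrays left out were not counted. Failing the rule bounds the values of these probe sets, and some may share oligonucleotides with the members.

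How close the IDs were went along with the size. The 10 probe sets of a member's own subcluster had median differences of 1.19 at CP and 1.48 at LP, and 6 of them reached 1 at both. The 57 of other subclusters had medians of 0.35 and 0.19, and 8 of them reached 1 at both. In 24 of the 30 stems at least 1 other probe set stayed under 1, and in 15 a bright one did.

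**Figure D4:**
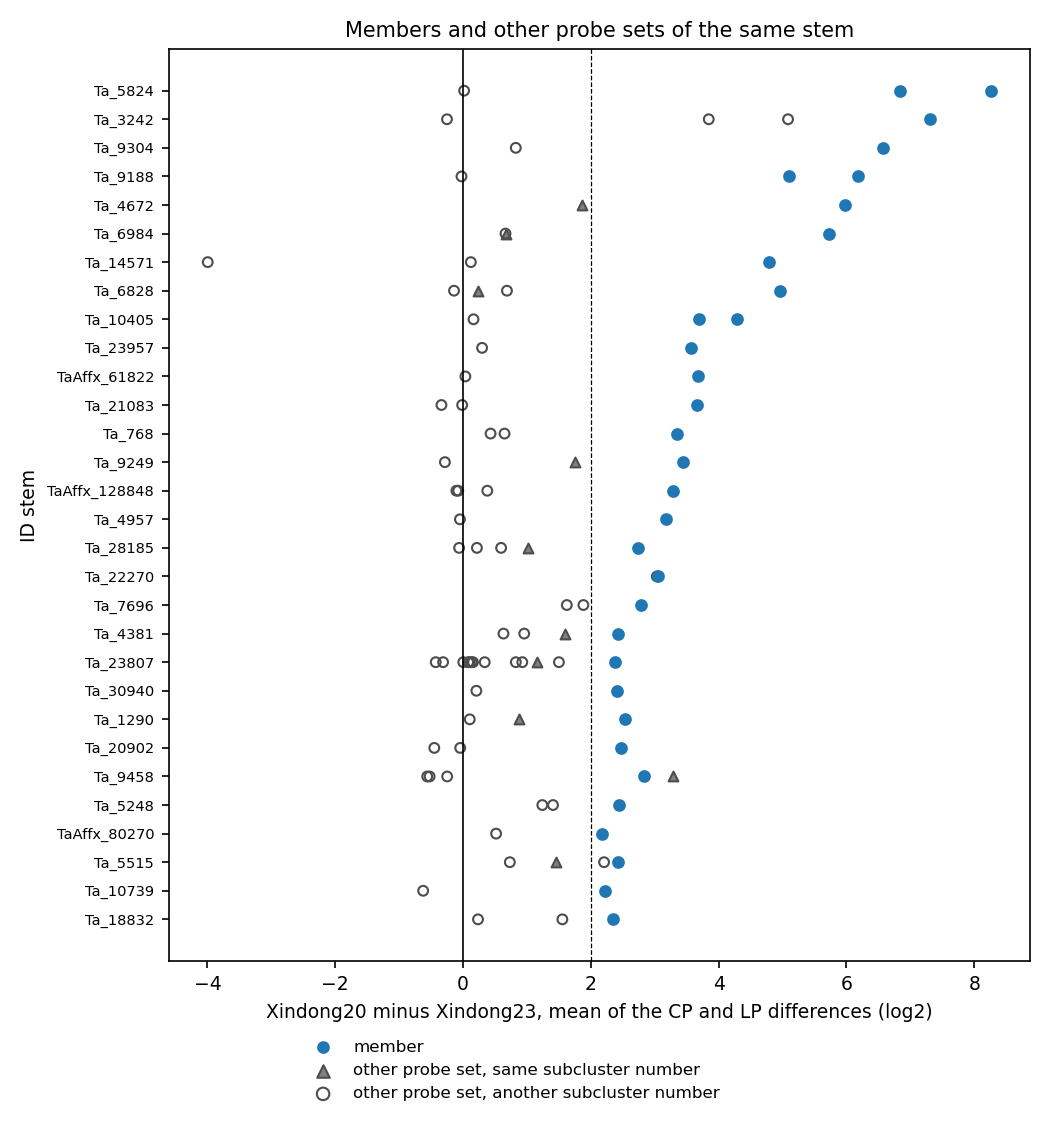
Xindong20 minus Xindong23 difference (log2, mean of the CP and LP differences, x axis) for each of the 30 stems that hold a member and another probe set. Blue points are members, grey triangles other probe sets with the member's subcluster number, and open circles probe sets of another subcluster. Most open circles lie near 0, and 1 lies near -4 (Ta_14571).

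Ta_5824 gave the sharpest contrast within a stem. Against the 8.02 and 8.49 of Ta_5824_2_S1_at, Ta_5824_1_S1_s_at was bright on every array, at 11.34 to 12.21 in Xindong20 and 11.37 to 12.39 in Xindong23. Its differences were -0.15 ± 0.27 at CP and 0.19 ± 0.27 at LP (SE, limma, adjusted p = 0.832 and 0.979). The levels of Ta_5824_1_S1_s_at overlapped between the varieties, where those of Ta_5824_2_S1_at were 6.98 apart at their nearest arrays.

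In Ta_14571, probe sets of a single stem differed in opposite directions. The member Ta_14571_1_S1_at gave 7.98, 8.27 and 8.22 at CP and 8.10, 7.76 and 8.90 at LP in Xindong20, and 3.08, 3.81 and 3.23 and then 2.88, 3.34 and 4.14 in Xindong23. Ta_14571_2_A1_at gave 3.31, 3.37 and 3.22 and then 3.02, 3.47 and 3.32 in Xindong20, and 7.55, 7.21 and 7.32 and then 6.45, 7.20 and 7.96 in Xindong23. The first was thus dim in Xindong23 and the second dim in Xindong20. The differences were 4.78 and 4.80 for the member and -4.06 and -3.93 for the other. For Ta_14571_2_A1_at limma gave adjusted p = 8.7e-05 at CP (3.75e-07 to 0.001 over the alternatives) and 0.000114 at LP (8.14e-06 to 0.001). It was the 1 probe set of the 67 that met the mirrored rule. Ta_14571_3_S1_x_at of the same stem differed by 0.35 and -0.11.

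**Figure D5:**
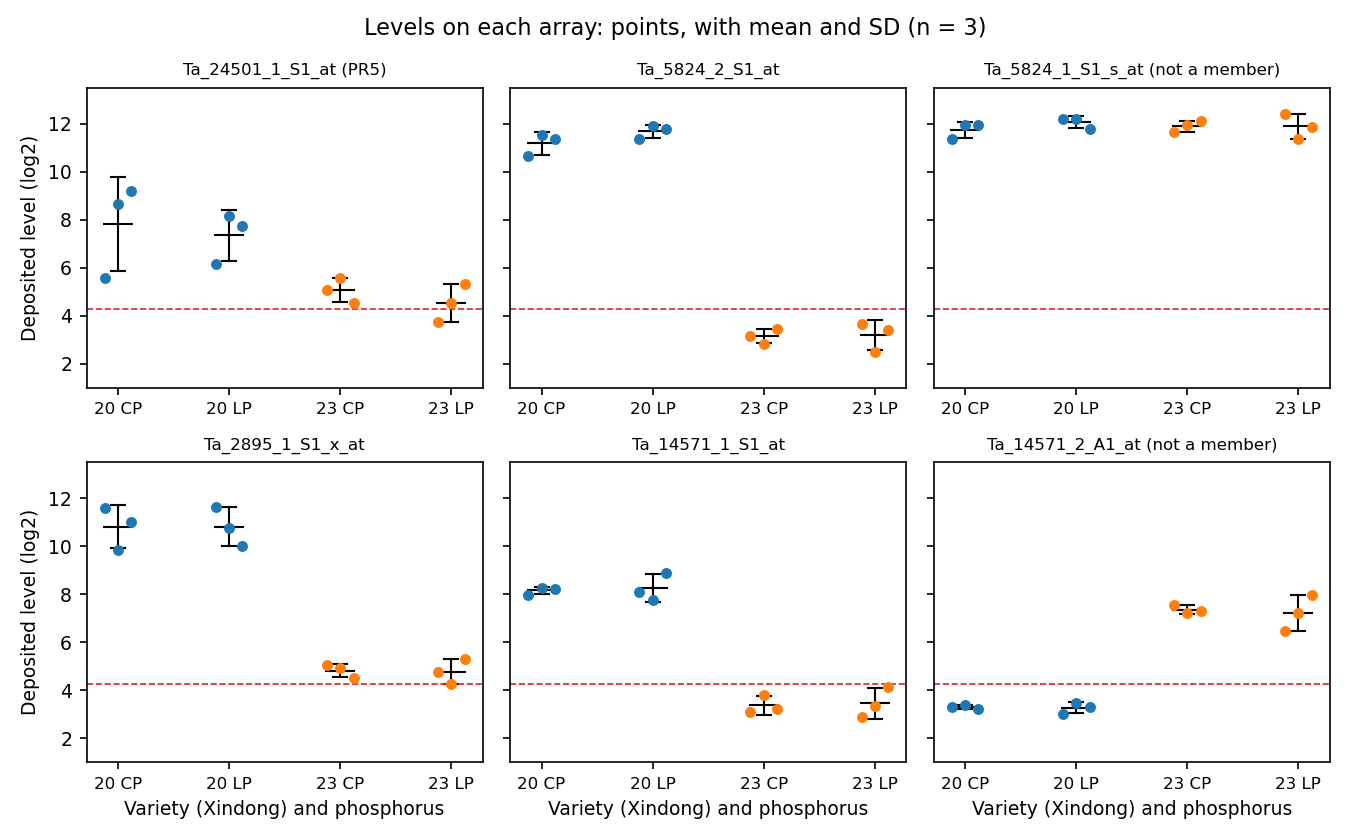
Log2 level on each array (points) with mean and SD of 3 replicates (black lines) for 4 members and 2 other probe sets, by variety (20 or 23) and phosphorus level. The dashed line marks the mean of the array medians, 4.27. Ta_5824_1_S1_s_at is bright in all groups, and Ta_14571_2_A1_at is high where Ta_14571_1_S1_at is low.

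In Ta_3242, a pair of further probe sets exceeded a difference of 2 at both phosphorus levels but were not members. Ta_3242_1_A1_a_at gave 11.37, 10.41 and 10.03 at CP and 9.18, 8.66 and 8.80 at LP in Xindong20, and 4.26 to 4.94 in Xindong23. It was lower at LP in Xindong20 by a difference of -1.73, which is why it was no member. Ta_3242_1_A1_at gave 10.16, 9.39 and 3.66 at CP and 7.99, 2.88 and 3.51 at LP in Xindong20, and 2.30 to 2.56 in Xindong23. Its Xindong20 arrays thus fell into 3 at 7.99 or above and 3 at 3.66 or below, with both kinds in each phosphorus group. Ta_3242_2_S1_at lay between 7.83 and 8.99 on all 12 arrays.

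After Ta_14571, the next 4 stems by the lowest difference in another probe set had that probe set below 0 at 1 phosphorus level or at both. Ta_9458_3_S1_x_at differed by 0.87 at CP and -1.37 at LP, beside 3.44 and 2.21 for the member Ta_9458_1_S1_at. Ta_10739_1_A1_at differed by -0.90 and -0.35, beside 2.36 and 2.08 for Ta_10739_2_S1_at. Ta_23807_10_S1_at differed by -0.80 and -0.05, beside 2.32 and 2.44 for Ta_23807_4_S1_s_at. Ta_9249_1_S1_at differed by -0.60 and 0.03, beside 3.21 and 3.68 for Ta_9249_2_S1_at. These stems were taken in order of the lowest difference in another probe set, so they show the most unlike cases. Further stems also held a probe set below 0, such as Ta_20902_1_S1_x_at at -0.51 and -0.39.

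The members differed from the array as a whole in the kind of their IDs. IDs that begin with Ta, whose numbers come from UniGene clusters, made up 75.9% of the members and 51.4% of all probe sets, and those that begin with TaAffx 24.1% and 48.5%. The letter A, for the orientation of the design sequence, stood in 30.4% of the member IDs and in 17.4% of all. Endings in _x_at stood in 6.25% and 11.1%. The 75 probe sets higher in Xindong23 had 73.3% Ta IDs, 32% with the letter A and 10.7% with the ending _x_at. These shares were not tested and not matched for level, and the members were brighter in Xindong20 than the array as a whole. The shares of Ta IDs and of the letter A lay closer to each other in both sets than to those of the whole array.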

How the data were processed

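RNA from 12 root samples was hybridised to Affymetrix wheat arrays. The authors deposited 1 table of normalized values for 61290 probe sets, treated here as log2 intensities. The log base was read from their range and is not given in the sources used here. Affymetrix Expression Console 1.4.1 and RMA, which corrects background, equalises array distributions and summarises probes, appear, per the submitters' processing notes, with neither role nor order. Such scaling would hide a shift common to most transcripts. Raw intensities and detection calls were not used here.

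The 111 AFFX controls stayed outside all tests. Group means came from 3 arrays each. All 61179 other probe sets were fitted together with a mean for each group (limma 3.58.1 in R 4.3.3, lmFit and eBayes, 8 residual degrees of freedom), with Benjamini-Hochberg adjustment over all of them and a threshold of 0.05. The fit was tested on simulated data. Single technical measures were compared by exact permutation tests (scipy 1.17.1). Precision is limited by the number of arrays.

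The members, the gene lists and the rules for naming were chosen with earlier results of these data known. Named were the annotated member, the 10 members with the largest smaller difference, 3 probe sets on each side of the threshold, the 5 stems with the lowest difference in another probe set, the 3 members highest in Xindong23 and the extremes of the LP minus CP difference. Gene names came from the platform annotation (771 genes, 770 of them matched in RefSeq's table of the assembly IWGSC CS RefSeq v2.1). No sequences or coordinates of the probe sets were used.

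Replicate numbers were not treated as pairs, because same-numbered arrays were not steadily alike. Deviations from the group means correlated between them from -0.287 to 0.756, over 0.1 in only 6 of 18 pairs of arrays. Within Xindong20, however, same-numbered CP and LP arrays correlated at 0.190, 0.281 and 0.074, above all differently numbered ones (-0.266 to 0.069). In Xindong23 they correlated at 0.355, -0.157 and 0.190, against -0.434 to 0.286. The block used below was common to both varieties, and a pairing within each variety was not tested. Alternatives were other scalings, other limits of the rule, other variance settings, a filter on dim probe sets, and leaving out arrays.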

Additional observations from a re-analysis of the deposited data

Results flagged for a closer look

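The 3′ minus 5′ level of ubiquitin was 2.84 on Xindong20 LP3, far above the other 5 Xindong20 arrays, which lay between -0.88 and -0.41. On Xindong23 LP3 it was 1.16, above the other 5 Xindong23 arrays at -0.65 to -0.19. In each variety, the gap to the next array was larger than Dixon's criterion allows for 6 values, a criterion that chance exceeds in about 1 group in 20. The same arrays had the lowest mean levels of the poly-A spikes, 3.74 in Xindong20 and 4.296 in Xindong23. The other LP arrays also lay below every CP array in this measure. Of the 112 members, 104 were also chosen without both LP3 arrays.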

How the results depend on the processing

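The number of members, 112, was 108 after quantile normalization, 107 after median centring, 153 with a minimum difference of 1.5, 133 without the phosphorus limit, 121 without the separation of arrays and 130 without both LP3 arrays. It was 55 with a minimum difference of 3 and 56 with a phosphorus limit of 0.5, which are stricter by construction, and 96 to 125 over single arrays left out. The members called higher in Xindong20 stayed at 82 to 112 at CP and 82 to 105 at LP over all alternatives. The 2 members called at LP in Xindong20 became 1 with a trended variance, 25 with array weights, 9 without both LP3 arrays and 0 to 3 over single arrays left out, and the cause was not tested. In the interaction 0 became 3 with array weights, 1 without both LP3 arrays and 0 to 1 over single arrays. Of the other probe sets of the stems, 12 were called higher at CP, against 27 with array weights, 20 without both LP3 arrays and 4 to 15 over single arrays. At LP it was 10, against 6 to 13 over single arrays. Shares over all probe sets were not counted under the alternatives, so these changes were not set against those of the whole array. The ubiquitin difference of 0.15 turned to -0.15 without both LP3 arrays, -0.22 within CP and -0.42 to 0.41 over single arrays. The spike difference of -0.19 turned to 0.18 within CP and ran from -0.56 to 0.26 over single arrays. None of these had an exact permutation p under 0.05 (the smallest was 0.1, within CP, the smallest that 3 against 3 arrays allow).

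With the replicate number as a block, in place of the unpaired fit, 99 members were called at CP, 93 at LP, 1 at LP against CP in Xindong20, 0 in Xindong23 and 0 in the interaction, and 10 and 9 other probe sets at CP and LP.

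Signals near background bound the signal folds of 72 members from below, but not their transcript folds. Groups of 3 arrays leave wide errors, and the varieties were compared only under drought. Probe sequence, gene content and transcript level cannot be told apart, and 111 members have no gene name.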
